A study of Mus musculus with 8 samples.

Results

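The 75 genes described here are named for mitochondrial ribosomal proteins. All but Mrps36 encode one, as given below, and the 75 are called mitochondrial ribosomal protein genes throughout. They were taken by name: 79 transcript clusters in the authors' deposited table of fold changes carried a mouse symbol that begins with Mrpl or Mrps followed by a number, and for each symbol the cluster that was brightest on average over the 8 arrays was kept. This gave 75 of the 23984 genes tested, 47 with an Mrpl symbol and 28 with an Mrps symbol. A transcript cluster is a set of probes read together as 1 signal. Some genes have more than 1 cluster, and some clusters are described with several genes. Among these is the Mrpl33 cluster used here, which is also described with a predicted gene. Mrpl53, Mrpl58 and Mrps6 had no cluster under these symbols and were not analysed here, except that Mrpl58 was measured under its older symbol Ict1.

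The series profiled the prefrontal cortex, dissected at the cingulate cortex, of male mice with Affymetrix arrays, 1 array per mouse. The Mll1_KO group held 4 mice labelled knockout for Mll1, now named Kmt2a, and the WT group held 4 mice labelled wild-type. Mll1 is a histone methyltransferase that acts on lysine 4 of histone H3. All mice were 12 weeks old, lived alone in their cages for 1 week before the brain was taken, and were at rest. The series title speaks of neuronal Mll1, but the labels name neither the strain, the allele, a Cre driver nor the cells that lost the gene. The tissue was whole dissected cortex, in which fewer cells of a type and less RNA per cell cannot be told apart.

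Mitochondrial ribosomes translate the few messages of the mitochondrial genome, which encode core subunits of the respiratory chain and of the ATP synthase. Their RNA comes from the mitochondrial genome, whereas all their proteins are encoded in the nucleus, made in the cytosol and imported. Compared with the bacterial ribosome they have lost RNA and gained proteins, so each subunit mixes proteins with a bacterial counterpart and proteins without one. Neurons depend on this translation for the oxidative phosphorylation that supplies their synapses with ATP.

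Values are RMA log2 signals, in which a difference of 1 is a doubling, and each difference is Mll1_KO minus WT from limma with its standard error (SE). Adjusted p is the Benjamini-Hochberg value over all 23984 genes, and a gene passed when it was under 0.05. Signals of different genes come from different probes and are not compared with each other. The median over all genes was 8.23 to 8.25 on the Mll1_KO arrays, against 8.255 to 8.29 on the WT arrays, and the lower quartile was 7.11 to 7.16, against 7.20 to 7.29. WT replicates 1 and 4 stood apart from the other arrays on the first and the second principal component. The 4 cortical markers read here (Tbr1, Fezf2, Bcl11b and Cux2) lay above the lower quartile of the arrays. However, 3 of them were lower in Mll1_KO, beside 5.69% of all genes. They were led by Tbr1 at -0.46 ± 0.060 log2 and Fezf2 at -0.33 ± 0.071 (SE, limma, adjusted p = 0.00236 and 0.0201).

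Kmt2a itself (transcript cluster 10592942) read 10.42, 10.38, 10.29 and 10.30 on the Mll1_KO arrays, against 9.94, 10.13, 10.12 and 10.06 on the WT arrays. All 4 values labelled Mll1_KO lay above all 4 labelled WT, and the exact two-sided permutation p was 0.0286, the smallest that 4 against 4 arrays allow. The difference of 0.285 log2 (limma, adjusted p = 0.0142) was 0.22 without WT replicates 1 and 4 and then did not pass (limma, adjusted p = 0.0601). The signal was thus higher, not lower, in the group labelled knockout. The labels do not state which part of the gene is deleted, so a summary over probes along the gene does not check them. Every direction below rests on the labels as given.

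The comparison asked which mitochondrial ribosomal protein genes gave a different signal in cortex of Mll1_KO mice. Of the 75 genes, 10 were higher in Mll1_KO and 0 were lower. Over all genes tested the same rule called 5.15% higher and 5.69% lower. The share called higher rose with signal over all genes, as given below. The median difference of the 75 genes was 0.11 log2, beside -0.0325 over all genes, and 68 of the 75 differences were above 0, beside 41% of all genes. The 10 that passed differed by 0.185 to 0.30 log2, which is 1.14-fold to 1.23-fold. At an unadjusted p under 0.05, 36 of the 75 were higher and 0 lower, where the share over all genes was 12.7% higher and 20.3% lower. The list was described by these counts and medians, and it was not tested against other genes.

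The count of 10 was sensitive to single arrays. It was 2 without Mll1_KO replicate 2, 1 without Mll1_KO replicate 3 and 4 without Mll1_KO replicate 4, where 2.11%, 1.66% and 3.02% of all genes were called higher. It was 3 without WT replicate 1 (2.44% of all genes), 6 without WT replicate 2 (3.29%) and 1 without WT replicates 1 and 4 together (1.77%), the remaining gene being Mrpl23. The other 9 had adjusted p of 0.0507 to 0.162 in limma without these 2 arrays. The 10 differences were then 0.145 to 0.30. Their sign could not turn when arrays were left out, because the groups of these 10 genes did not overlap. The median difference was 0.094 to 0.127 with each array left out in turn and 0.08 without both of these WT arrays.

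**Figure D1:**
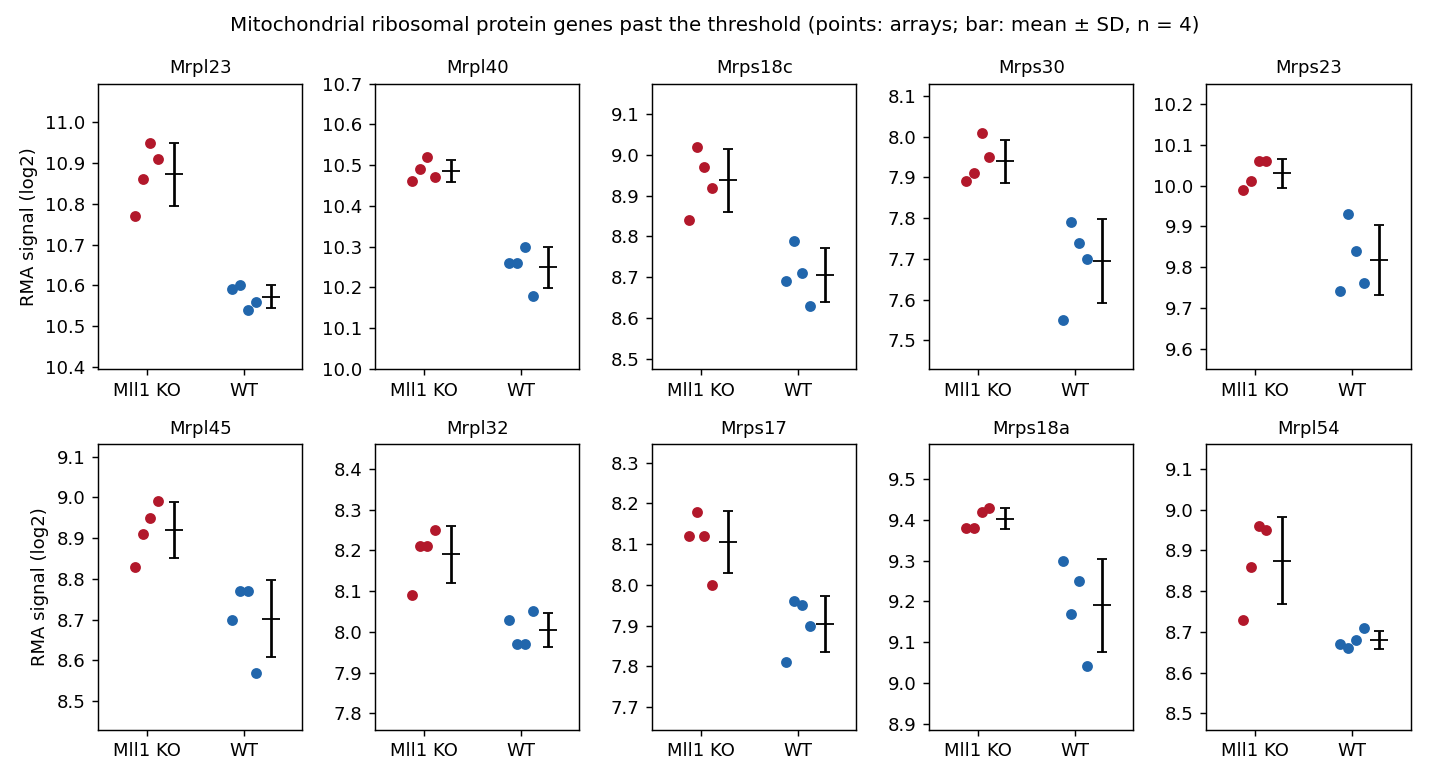
RMA log2 signal (y axis) of the 10 mitochondrial ribosomal protein genes that passed, with the 4 Mll1_KO arrays left of the 4 WT arrays in each panel. Points are arrays in replicate order and bars are the mean ± SD. In all 10 panels the lowest Mll1_KO array lies above the highest WT array, by 0.17 for Mrpl23 and by 0.02 for Mrpl54.

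Of the 49 genes whose products sit in the large subunit, 7 passed. Mrpl23 (10559233) encodes the counterpart of the bacterial protein L23, which lines the exit of the tunnel through which the new protein chain leaves. It read 10.77, 10.86, 10.95 and 10.91 in Mll1_KO, against 10.59, 10.60, 10.54 and 10.56 in WT. Its groups were the farthest apart of the 10, with a difference of 0.30 ± 0.051 log2 (SE, n = 4 and 4, limma, adjusted p = 0.00669). It passed with each of the 8 arrays left out in turn, without WT replicates 1 and 4, and after quantile normalization. A further Mrpl23 cluster, which the authors' deposited table also describes with an Mrpl23 pseudogene, gave 0.305 ± 0.048. The 2 clusters followed each other from array to array, and whether they share probe sequence was not given in the sources used here.

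Mrpl32 (10407870) encodes a protein with a bacterial counterpart that needs cleavage by the mitochondrial m-AAA protease before it can enter the large subunit, as known from yeast and mouse. It read 8.09, 8.21, 8.21 and 8.25 in Mll1_KO, against 8.03, 7.97, 7.97 and 8.05 in WT. The groups did not overlap, though Mll1_KO replicate 1 lay close to the WT values, and the difference of 0.185 ± 0.050 (SE) passed (limma, adjusted p = 0.0397). The other 28 large subunit genes with a bacterial counterpart did not pass. Their differences ran between -0.0475 for Mrpl28 and 0.195 for Mrpl24, and the median of all 30 was 0.099.

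The remaining 5 large subunit genes that passed encode proteins with no bacterial counterpart, a class of 19 genes with a median difference of 0.15. Mrpl40 (10438400), whose human counterpart lies in the region deleted in DiGeorge syndrome, read 10.46, 10.49, 10.52 and 10.47 in Mll1_KO, against 10.26, 10.26, 10.30 and 10.18 in WT. The Mll1_KO values were tightly grouped and all above WT, with a difference of 0.235 ± 0.046 (SE, limma, adjusted p = 0.0133). Mrps30 (10412385) carries a small subunit name, but its product, mL65, sits in the large subunit. It read 7.89, 7.91, 8.01 and 7.95 in Mll1_KO, against 7.55, 7.79, 7.74 and 7.70 in WT. WT replicate 1 was the lowest array, and the difference of 0.245 ± 0.059 passed (SE, limma, adjusted p = 0.0274).

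Mrpl45 (10380751) encodes the relative of yeast Mba1, which holds the ribosome at the inner membrane, where the new proteins are inserted. It read 8.83, 8.91, 8.95 and 8.99 in Mll1_KO, against 8.70, 8.77, 8.77 and 8.57 in WT. WT replicate 4 was the lowest array, and the groups did not overlap. The difference was 0.22 ± 0.059 (SE, limma, adjusted p = 0.039). Mrps18a (10445434) encodes mL66, the large subunit member of a family of 3 paralogs related to bacterial S18. It read 9.38, 9.38, 9.42 and 9.43 in Mll1_KO, against 9.30, 9.17, 9.25 and 9.04 in WT. The WT arrays were spread wider than the Mll1_KO arrays, and the difference was 0.21 ± 0.059 (SE, limma, adjusted p = 0.0416). Mrpl54 (10371107) read 8.73, 8.86, 8.96 and 8.95 in Mll1_KO, against 8.67, 8.66, 8.68 and 8.71 in WT. Here the Mll1_KO arrays were the more spread, replicate 1 lay just above WT, and the difference was 0.195 ± 0.057 (SE, limma, adjusted p = 0.0487).

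The promoters of 4 of these genes are shown to compare what lies before them. Each is 300 bases long, 250 before the annotated start and 50 after it, written 5′ to 3′ on the gene's strand as RefSeq gives it for GRCm38.p6. Capitals mark matches to 3 motifs that are common in promoters of nuclear genes for mitochondrial proteins: the NRF1 motif (GCGC, any base, then TGCGC), the ETS motif CCGGAAGT bound by factors such as GABP, and the YY1 motif (AAGATGG followed by CGGC), each searched on both strands. The regions are chr7:142532782-142533081 (+) for Mrpl23, chr13:14612988-14613287 (-) for Mrpl32, chr11:97315466-97315765 (+) for Mrpl45 and chr17:46110754-46111053 (+) for Mrps18a.
Mrpl23: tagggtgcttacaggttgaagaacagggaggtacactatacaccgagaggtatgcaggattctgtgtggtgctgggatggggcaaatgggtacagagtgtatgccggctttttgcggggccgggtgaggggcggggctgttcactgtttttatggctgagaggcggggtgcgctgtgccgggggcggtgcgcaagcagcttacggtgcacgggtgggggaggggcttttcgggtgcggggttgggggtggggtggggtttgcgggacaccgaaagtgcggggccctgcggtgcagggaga
Mrpl32: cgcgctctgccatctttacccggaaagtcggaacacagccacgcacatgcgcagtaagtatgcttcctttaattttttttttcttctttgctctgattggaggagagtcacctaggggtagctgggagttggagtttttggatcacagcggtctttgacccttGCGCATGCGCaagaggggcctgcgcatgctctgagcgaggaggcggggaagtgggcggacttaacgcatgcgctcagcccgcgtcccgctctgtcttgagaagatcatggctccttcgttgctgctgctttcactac
Mrpl45: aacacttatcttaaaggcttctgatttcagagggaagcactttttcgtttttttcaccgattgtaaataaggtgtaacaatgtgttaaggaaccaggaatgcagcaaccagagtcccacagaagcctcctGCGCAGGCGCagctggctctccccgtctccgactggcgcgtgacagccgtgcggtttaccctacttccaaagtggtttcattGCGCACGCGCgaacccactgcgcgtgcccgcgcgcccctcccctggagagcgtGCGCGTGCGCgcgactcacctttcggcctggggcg
Mrps18a: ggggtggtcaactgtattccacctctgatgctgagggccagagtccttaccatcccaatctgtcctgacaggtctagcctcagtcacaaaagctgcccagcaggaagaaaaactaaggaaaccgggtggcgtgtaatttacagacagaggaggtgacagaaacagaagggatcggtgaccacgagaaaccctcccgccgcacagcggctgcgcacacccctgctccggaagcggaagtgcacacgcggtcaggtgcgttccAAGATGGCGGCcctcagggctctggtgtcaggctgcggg
Mrpl45 held 3 NRF1 matches, which begin at positions -120, -38 and 16 relative to the start. Mrpl32 held 1, which begins at -87 and reads on both strands. Mrps18a held a YY1 match that begins at position 12, and Mrpl23, the gene with the largest difference, held none of the 3. Mrpl40 and Mrps30 also held none and are not shown, so the promoters printed here favour those with a match. Of the passing genes of either subunit with a promoter entry, 4 held a match to any of the 3 motifs and 5 did not.

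Among the 25 small subunit genes 3 passed. Mrps18c (10523541) encodes the protein that takes the place of bacterial S18. It read 8.84, 9.02, 8.97 and 8.92 in Mll1_KO, against 8.69, 8.79, 8.71 and 8.63 in WT. The groups were apart, with the lowest Mll1_KO array at 8.84 and the highest WT array at 8.79, and the difference was 0.23 ± 0.055 (SE, limma, adjusted p = 0.0266). Mrps17 (10526049), the counterpart of bacterial S17, an RNA-binding protein of early small subunit assembly, read 8.12, 8.18, 8.12 and 8.0 in Mll1_KO, against 7.81, 7.96, 7.95 and 7.90 in WT. Mll1_KO replicate 4 was the nearest to WT, and the difference was 0.20 ± 0.055 (SE, limma, adjusted p = 0.0413). Mrps23 (10380238), which has no bacterial counterpart, read 9.99, 10.01, 10.06 and 10.06 in Mll1_KO, against 9.74, 9.93, 9.84 and 9.76 in WT. Its Mll1_KO values were close together and above all WT values, and the difference was 0.21 ± 0.053 (SE, limma, adjusted p = 0.0315).

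The promoter of Mrps18c, chr5:100798509-100798808 (+) in GRCm38.p6 from RefSeq, is shown because 2 of the searched motifs adjoin each other in it. Capitals mark an E box, CACGTG, which begins at position -163, and directly after it an ETS match on the other strand, which begins at -157. The promoters of Mrps17 and Mrps23 held no NRF1, ETS, YY1 or E box match and are not shown.
Mrps18c: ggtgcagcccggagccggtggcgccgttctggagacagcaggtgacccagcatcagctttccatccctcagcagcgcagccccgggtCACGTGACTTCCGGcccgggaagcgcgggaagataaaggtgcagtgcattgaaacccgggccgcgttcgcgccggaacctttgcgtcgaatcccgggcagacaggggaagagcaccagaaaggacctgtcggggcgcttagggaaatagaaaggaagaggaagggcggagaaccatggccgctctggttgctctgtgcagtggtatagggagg
The other paralogs of the S18 family stood as follows. Mrps18a in the large subunit passed, whereas Mrps18b, whose product is the small subunit protein mS40, did not, at 0.19 ± 0.075 (SE, limma, adjusted p = 0.111). Mrps18b read 9.67, 9.59, 9.78 and 9.45 in Mll1_KO, against 9.41, 9.44, 9.57 and 9.32 in WT, and its groups overlapped. Whether the 3 paralogs differ from each other in their response was not tested.

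Small subunit genes without a change past the threshold ran between -0.0825 and 0.1925 log2 in the 13 with a bacterial counterpart and between 0.005 and 0.1875 in the 9 without one. At the low end stood Mrps12, the counterpart of bacterial S12 at the decoding centre. It read 8.02, 8.15, 8.22 and 8.26 in Mll1_KO, against 8.41, 8.19, 8.13 and 8.25 in WT, with overlapping groups and a difference of -0.0825 ± 0.071 (SE, limma, adjusted p = 0.422). Mrps22, mutated in a human mitochondrial disease, read 9.22, 9.20, 9.18 and 9.18 in Mll1_KO, against 9.18, 9.18, 9.23 and 9.17 in WT. Its values were close together in both groups, with a difference of 0.005 ± 0.043 (SE, limma, adjusted p = 0.947). In the class of 15 small subunit genes with a bacterial counterpart 11 differences were above 0 and the median was 0.075. In the class of 10 without one all 10 were above 0 and the median was 0.125.

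Several genes lay just beyond the threshold. Mrps14 (0.19 ± 0.057 log2, SE), Mrpl49 (0.16 ± 0.048) and Mrpl16 (0.185 ± 0.056), the last a neighbour of the peptidyl transferase centre in its bacterial form, had adjusted p of 0.0515, 0.052 and 0.0549 in limma. All 3 had groups that did not overlap. Mrpl42, Mrpl24, Mrpl13 and Mrpl57 differed by 0.20, 0.195, 0.18 and 0.18, with adjusted p of 0.0651, 0.067, 0.0958 and 0.109 in limma. In all, 26 of the 75 genes had Mll1_KO values wholly above WT and 0 had them wholly below, where the shares over all genes were 9.47% and 10.1%. The 26 comprised the 10 that passed and 16 others. Mrpl12, the counterpart of the bacterial stalk protein L7/L12 that recruits translation factors, was among those with overlapping groups. It read 9.36, 9.22, 9.42 and 9.57 in Mll1_KO, against 9.31, 9.41, 9.49 and 9.19 in WT, and differed by 0.0425 ± 0.081 (SE, limma, adjusted p = 0.734).

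**Figure D2:**
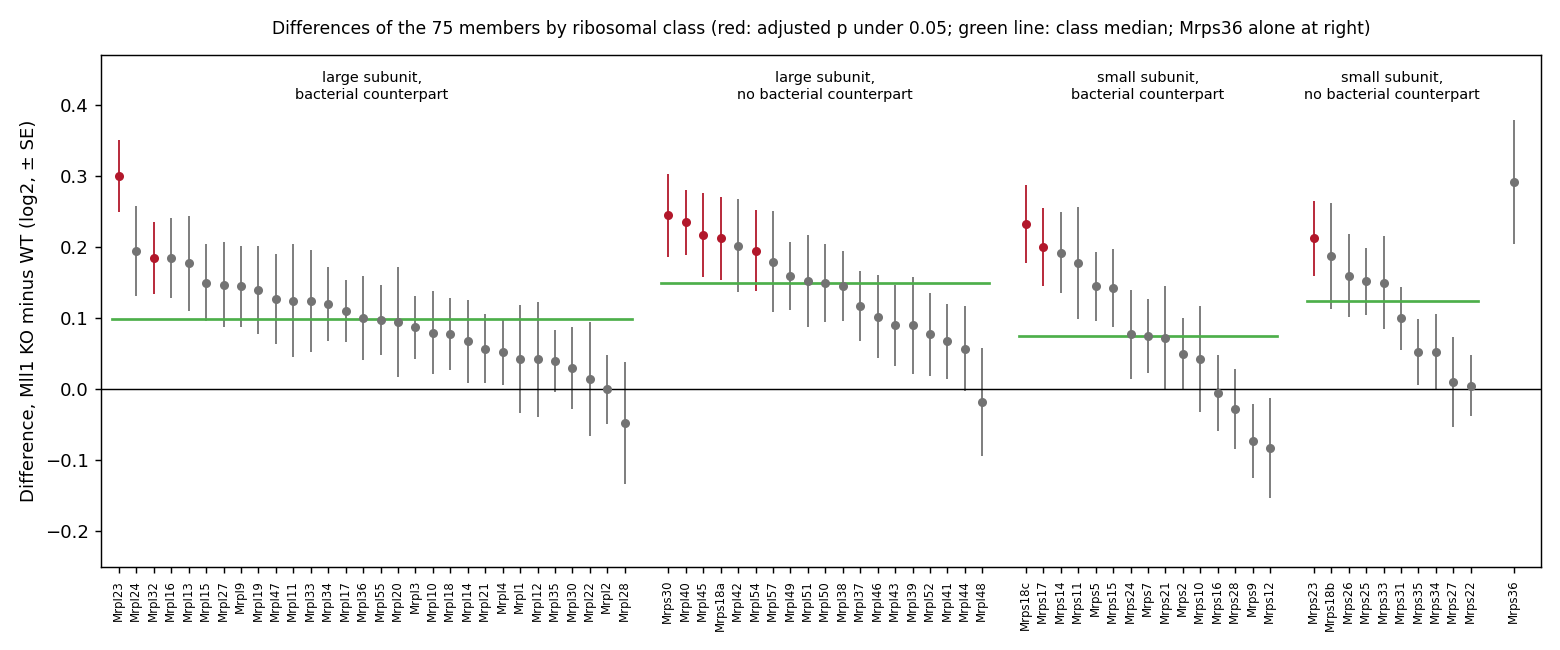
Difference Mll1_KO minus WT in log2 (y axis, points ± SE) of each of the 75 genes, ordered by size within each class (x axis). Red points passed, grey points did not, and green lines are class medians: 0.099 and 0.15 for large subunit proteins with and without a bacterial counterpart, 0.075 and 0.125 for small subunit proteins with and without one.

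The class medians lay between 0.075 and 0.15. Proteins with no bacterial counterpart had 5 passing genes of 19 in the large subunit and 1 of 10 in the small subunit. Those with one had 2 of 30 and 2 of 15, where 5.15% of all genes were called higher. After quantile normalization the counts were 2 of 19, 0 of 10, 2 of 30 and 2 of 15, where 2.86% of all genes were higher. By subunit, the median was 0.1175 over 49 large subunit genes, 46 of them above 0, and 0.0775 over 25 small subunit genes, 21 of them above 0. No difference between classes was tested, and the median SE of a single gene was 0.057.

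Mrps36 was kept apart. Although named for the ribosome, its product, KGD4, is an adaptor of the alpha-ketoglutarate dehydrogenase complex of the citric acid cycle. It read 7.90, 8.12, 7.97 and 7.89 in Mll1_KO, against 7.50, 7.79, 7.54 and 7.88 in WT. The groups just missed overlap, with the lowest Mll1_KO array at 7.89 and the highest WT array at 7.88, and WT replicates 1 and 3 were low. Its difference of 0.29 ± 0.087 was close in size to that of Mrpl23 but had a larger error and did not pass (SE, limma, adjusted p = 0.0522). After quantile normalization it passed, at 0.36 (limma, adjusted p = 0.0486).

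For 4 genes more than 1 cluster was measured. In Mrpl23 they gave 0.30 and 0.305 log2. The Mrps33 clusters gave 0.15 and 0.125, and the Mrpl47 clusters 0.1275 and 0.065, none of which passed. Mrpl48 was the exception in sign: the brighter cluster gave -0.0175 ± 0.077 and the other 0.1175 ± 0.055 (SE, limma, adjusted p = 0.891 and 0.163). That other cluster was also described with a second gene, so no direction is given for Mrpl48.

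Levels were also read array by array. The mean signal over the 75 genes was 9.156, 9.164, 9.207 and 9.195 on the Mll1_KO arrays, against 9.056, 9.109, 9.090 and 9.023 on the WT arrays. The means did not overlap: they averaged 9.18 ± 0.024 in Mll1_KO and 9.07 ± 0.038 in WT (SD, n = 4 each), which is 0.111 apart. The mean over all 23984 genes went the other way, at 8.269 ± 0.007 in Mll1_KO and 8.293 ± 0.010 in WT. On the 4 Mll1_KO arrays 57, 50, 68 and 63 of the 75 genes lay above their own mean over 8 arrays, against 19, 27, 20 and 11 on the WT arrays. Over all genes the shares above their own mean were 46.6%, 44.3%, 45.1% and 48.4% on the Mll1_KO arrays, against 55.1%, 59.8%, 54.0% and 49.4% on the WT arrays. Among the 75 genes, WT replicate 4 was the lowest array, or tied for it, in 37 and WT replicate 1 in 23. Mll1_KO replicates 3 and 4 were each the highest, or tied for it, in 27. How often each array was lowest or highest over all genes was not counted. The median SD of a gene was 0.064 over Mll1_KO arrays and 0.084 over WT arrays, beside 0.068 and 0.090 over all genes.

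**Figure D3:**
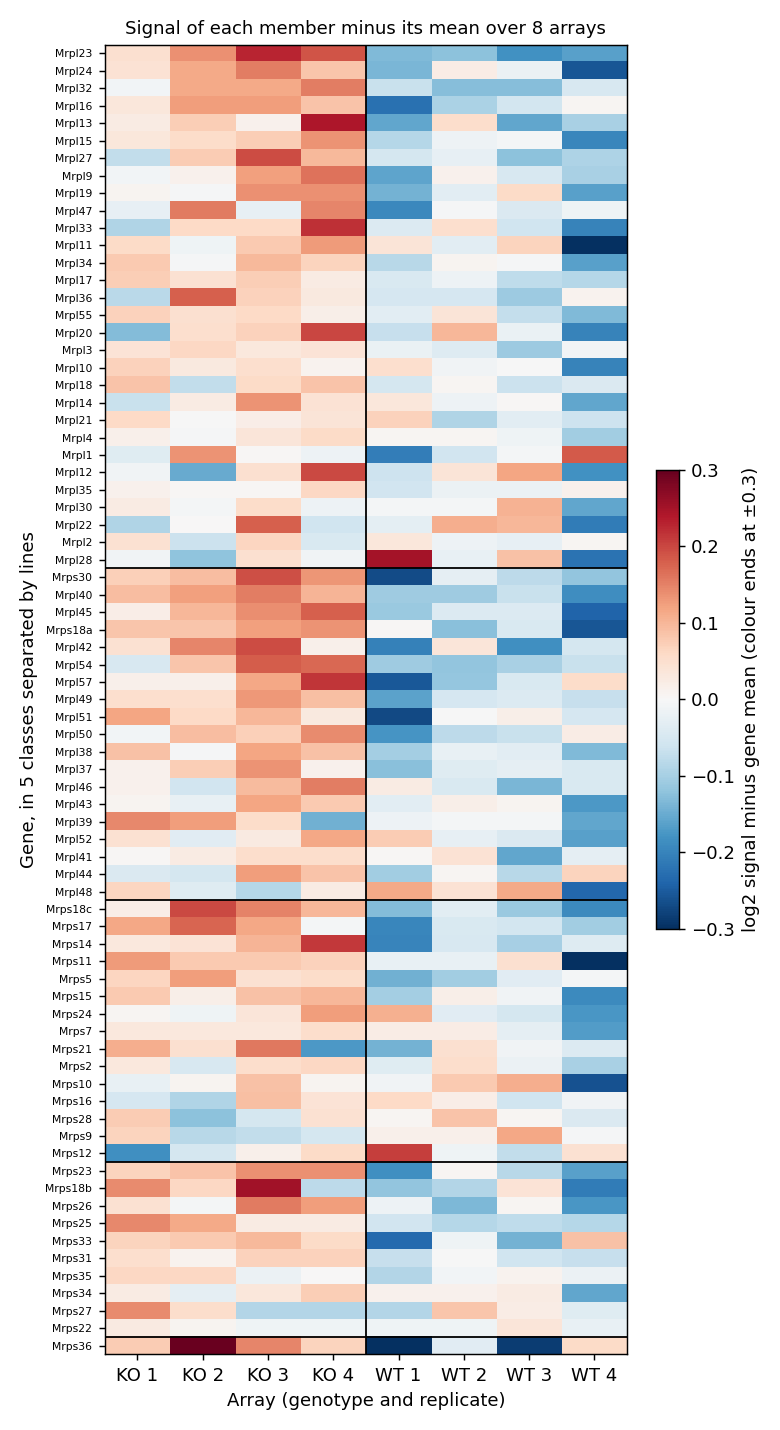
Signal of each of the 75 genes (rows, in 5 classes) on each array (columns, 4 Mll1_KO left of 4 WT) minus the gene's mean over 8 arrays, in log2, with the colour scale ending at ±0.3. Red is above and blue below the gene's mean: 57, 50, 68 and 63 genes are above it on the Mll1_KO arrays, against 19, 27, 20 and 11 on the WT arrays. Over all genes the shares above it are 44.3% to 48.4% on the Mll1_KO arrays, against 49.4% to 59.8% on the WT arrays.

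The size of the difference moved with signal over all genes. When all genes were cut into 10 classes by mean signal, the median difference was -0.12 in the second dimmest class and 0.03, 0.0575 and 0.0675 in classes 7, 8 and 9. Of the 75 genes, 62 fell in classes 6 to 9. Their own medians were 0.145 in class 7 (19 genes), 0.1125 in class 8 (18 genes) and 0.104 in class 9 (16 genes), each above that of the class. Over all classes, 63 of the 75 lay above the median of their own class. The share of all genes called higher was 0.5% in the dimmest class and 7.21%, 9.3% and 11.2% in classes 7, 8 and 9. Among the 75, 3 of 19, 1 of 18 and 2 of 16 passed in classes 7, 8 and 9. In classes 4, 5, 6 and 10 the counts were 1 of 2, 2 of 8, 0 of 9 and 1 of 2. The shares of all genes called higher in those 4 classes were 1.6%, 2.0%, 4.3% and 13.9%. The 1 gene in class 3 did not pass. Over all genes, those called lower numbered 50, 49 and 54 in classes 7, 8 and 9, beside 241 in the second dimmest class (2398 or 2399 genes per class). The part of the trend with signal in the differences and calls of single genes was not tested.

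Quantile normalization of the deposited values, which gives all arrays the same distribution, moved the class medians to between -0.038 and 0.0125. It changed the balance of calls over all genes as well: 686 genes (2.86%) were then higher and 378 (1.58%) lower, so that 64.5% of calls were rises, against 47.5% before it. Of the 75 genes 7 were then higher and 0 lower, with a median difference of 0.083, and 63 were above 0, beside 46.4% of all genes. Mrpl23, Mrps18c, Mrps30, Mrpl32 and Mrps17 passed both ways, at 0.235, 0.22, 0.32, 0.24 and 0.26 after it. Mrps36 and Mrpl42 passed only after it. Mrpl40, Mrps23, Mrpl45, Mrps18a and Mrpl54 did not pass after it, with differences of 0.15 to 0.21 and adjusted p of 0.071, 0.101, 0.0717, 0.129 and 0.0916 in limma.

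**Figure D4:**
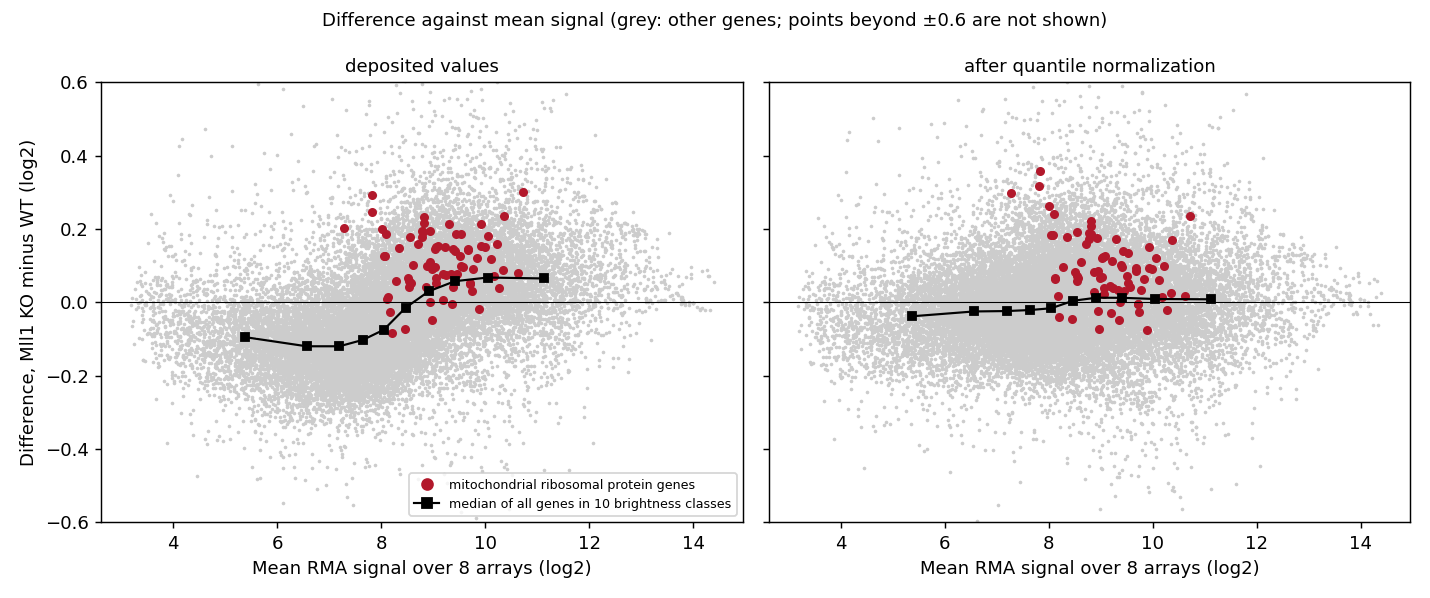
Difference Mll1_KO minus WT in log2 (y axis) against mean RMA log2 signal over 8 arrays (x axis), for the deposited values (left) and after quantile normalization (right). Grey points are other genes, red points the 75 mitochondrial ribosomal protein genes, and black squares the median of all genes in 10 classes of signal, which lies between -0.12 and 0.0675 at left and between -0.038 and 0.0125 at right.

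Other genes of mitochondrial translation were read for comparison, beside 5.15% of all genes called higher, and 2.86% after quantile normalization. Of 6 mitochondrial ribosomal proteins with other symbols 2 rose, with a median of 0.15 for the 6. Dap3, a GTP-binding protein of the small subunit, read 9.80, 9.92, 9.90 and 9.81 in Mll1_KO, against 9.63, 9.70, 9.62 and 9.63 in WT. The groups did not overlap, and the difference was 0.21 ± 0.049 (SE, limma, adjusted p = 0.024). Aurkaip1, also a small subunit protein, differed by 0.16 ± 0.044 (SE, limma, adjusted p = 0.0445). Neither passed after quantile normalization.

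Of 25 genes for ribosome assembly and modification of its RNA, 0 passed in either direction (5 had an unadjusted p under 0.05, all higher, and 0 passed after quantile normalization or cyclic loess in limma). Their median was 0.08, and the lowest adjusted p was that of Ngrn, needed for the large subunit RNA, at 0.14 ± 0.048 (SE, limma, adjusted p = 0.0783). Of 17 translation factors and related proteins 2 rose. Slirp, a partner of the mitochondrial messenger RNA binding protein Lrpprc, read 9.43, 9.39, 9.42 and 9.47 in Mll1_KO, against 9.23, 9.24, 9.22 and 8.86 in WT. WT replicate 4 was far below the others, and the difference was 0.29 ± 0.079 (SE, limma, adjusted p = 0.04). Tufm, the mitochondrial elongation factor that brings aminoacyl-tRNA to the ribosome, rose by 0.185 ± 0.052 (SE, limma, adjusted p = 0.043). Neither passed after quantile normalization, with adjusted p of 0.101 and 0.0857 in limma.

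Of 22 genes for charging mitochondrial tRNA, 1 rose (4.55%), beside 5.15% of all genes. This was Kars, at 0.26 ± 0.075 (SE, limma, adjusted p = 0.0474), which encodes the lysine enzyme of both cytosol and mitochondria. The median of the 22 was 0.026. Of 11 genes for transcription and replication of mitochondrial DNA 0 passed (2 had an unadjusted p under 0.05, both higher, and 1 passed after quantile normalization in limma). Mterf2, a transcription termination family member, was that gene, at 0.21 on the deposited values and 0.31 after quantile normalization (limma, adjusted p = 0.0628 and 0.0213).

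Further groups stood beside these. Over all genes 5.15% were called higher and 5.69% lower, with 2.86% higher after quantile normalization and 1.77% without WT replicates 1 and 4. Of 86 cytosolic ribosomal protein genes 57 rose and 0 fell, with a median difference of 0.24, and 22 rose after quantile normalization. Of 82 nuclear genes for the respiratory chain 6 rose (7.32%) and 1 fell (1.22%), with a median of 0.11, and 1 rose after quantile normalization. Of 19 genes of the mitochondrial genome, 2 for its ribosomal RNA, 17 for its tRNA and 0 for a protein, 4 rose and 0 fell, with a median of 0.265. Of these 19, 3 rose after quantile normalization and 1 without WT replicates 1 and 4. The differences between these groups and the mitochondrial ribosomal protein genes were not tested.

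**Figure D5:**
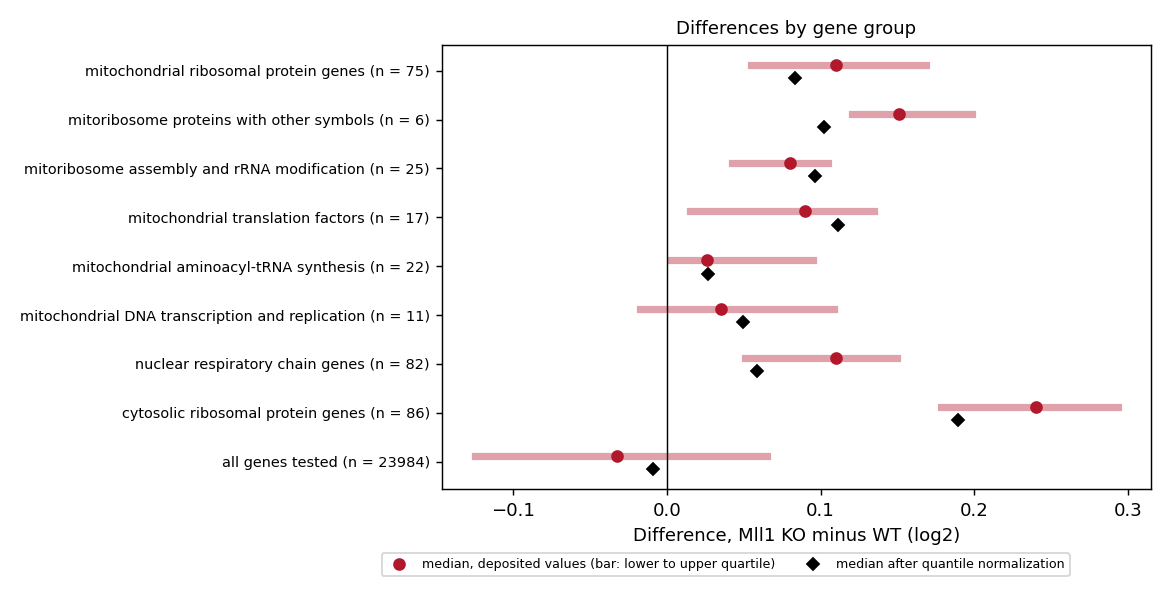
Difference Mll1_KO minus WT in log2 (x axis) for 8 gene groups and all genes tested (y axis). Red points are medians with bars from the lower to the upper quartile, and black diamonds are medians after quantile normalization. The 75 mitochondrial ribosomal protein genes have a median of 0.11 and 0.083 after normalization, and all genes -0.0325 and -0.009.

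Markers of cell types that the dissection could hold were summed on each array. Over all genes 5.69% passed as lower, and 20.3% were lower at an unadjusted p under 0.05 (limma). After cyclic loess 1.82% passed as lower. The sum over 8 neuronal markers was 98.11 to 98.39 log2 units in Mll1_KO, against 98.18 to 98.73 in WT, with 1 of 8, Gad1, lower. The 6 oligodendrocyte markers summed to 67.64 to 68.99 in Mll1_KO, against 68.43 to 69.11 in WT. All 6 had differences below 0, with a median of -0.094, of which 2 had an unadjusted p under 0.05, 0 passed, and 1 passed after cyclic loess (limma). The sums for 6 astrocyte markers (63.67 to 64.30 in Mll1_KO, against 63.72 to 64.06 in WT) and 6 endothelial and mural markers (53.19 to 54.53, against 53.85 to 54.52) overlapped, and 0 of these markers passed. The 6 microglia markers summed to 53.22 to 53.75 in Mll1_KO, against 52.63 to 53.42 in WT, and 0 passed. The 4 cortical markers summed to 39.33 to 39.67 in Mll1_KO, against 40.27 to 40.98 in WT, without overlap. The 3 blood markers summed to 24.81 to 25.60 in Mll1_KO, against 25.73 to 26.13 in WT, also without overlap. All 3 were lower at an unadjusted p under 0.05, and 1, Alas2, passed (limma). The sums of 5 striatal markers (49.55 to 50.57 in Mll1_KO, against 50.11 to 50.94 in WT) and 5 choroid plexus and ependyma markers (37.28 to 38.25, against 37.77 to 40.48) overlapped, with 1 striatal marker, Adora2a, and 0 of the others lower. No marker was at 0, and the part of cell composition in the differences above was not tested.

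Promoter content was the remaining feature that the choice by name did not use. Of the 75 genes 66 had an entry in the RefSeq promoter table, with 72 windows of 300 bases among 32851 in the table. An NRF1 match stood in 13 of the 72 (18.1%, exact binomial 95% interval 9.98 to 28.9), beside 4.6% of all promoters. An ETS match stood in 12 (16.7%, 8.92 to 27.3), beside 3.89%, and a YY1 match in 5 (6.94%, 2.29 to 15.5), beside 0.633%. Of the general promoter letters, GGGCGG stood in 38 windows (52.8%, 40.6 to 64.7), beside 35.7%. CCAAT stood in 29 (40.3%, 28.9 to 52.5), beside 37.4%, and when searched on 1 strand in 15.3%, beside 21.1%. CACGTG stood in 7 (9.72%, 4.00 to 19.0), beside 7.15%. The intervals treat windows as independent, though some genes had more than 1. The 38 windows with GGGCGG came from 33 genes, the 29 with CCAAT from 26 and the 7 with CACGTG from 5. The NRF1, ETS and YY1 windows came from 13, 12 and 5 genes. The median GC content was 58.2% in the 72 windows and 52.7% over all, and the motifs rich in G and C were not set against promoters of like content. The 28 genes with an NRF1, ETS or YY1 match had a median difference of 0.09 and 4 passing genes, and the 38 without one 0.1225 and 5. A match describes letters only, and no match says nothing about a factor's binding.

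By the FDR p-value of the authors' deposited table, 3 of the 75 genes were under 0.05, beside 4.13% of all its clusters: Mrpl40, Mrpl23 and Mrpl17. By the unadjusted p-value of the authors' deposited table, 30 were under 0.05, all 30 higher in Mll1_KO, beside 28.2% of its 28944 clusters in either direction. The authors' fold is positive for higher WT signal, the reverse of the differences above.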

How the data were processed

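RNA of 8 prefrontal cortices, 4 Mll1_KO and 4 WT, was labelled with biotin and hybridised to Affymetrix arrays, per the labels' protocols. The deposited value table holds log2 signals of 35556 transcript clusters. Affymetrix Expression Console, RMA and Transcriptome Analysis Console 3.0 are named, without role or order, per the submitters' processing notes. The authors' further table covers 28944 clusters, per the file headers: bi-weight mean log2 signals, a signed linear fold (used here only as a score), and p-values from ANOVA, unadjusted and as FDR. Array model, genome build and annotation release are not given in the sources used here.

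Clusters described with 1 gene were kept, with the mitochondrial ribosomal protein clusters, and reduced to the brightest per symbol, which left 23984 genes. Differences were fitted with limma 3.58.1 in R 4.3.3 (lmFit and eBayes, genotype as factor, no covariate, no filter), two-sided, with Benjamini-Hochberg adjustment and a threshold of 0.05. Depth of counting does not apply to arrays, whose number limits the precision. In simulated data with 200 of 23984 genes changed, 31% of changes of 0.25 log2 and 85% of those of 0.5 were recovered. In the real data 1236 genes were called higher and 1364 lower, so the simulated cut-off in p was stricter. The simulated noise was also independent between genes and arrays. These shares therefore do not give the recovery in the real data.

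The genes, lists, classes and motifs were chosen with earlier results of these data known. Named genes were Kmt2a, every mitochondrial ribosomal protein gene that passed, the 8 largest differences among those that did not, the extremes of each class, the S18 paralogs, Mrps30, Mrps36, Mrpl12 and Mrps12, up to 4 with groups that did not overlap, genes with several clusters, and per adjoining list those that passed or the lowest p. Shared replicate numbers were not taken as pairs in the main fit. Same-numbered arrays deviated from their group means with correlations of -0.008, 0.010, 0.002 and 0.024. With 4 arrays per group, these values cannot show whether the samples were paired. The labels say nothing of shared litters or batches. A further cortical marker is not reported here. Alternatives were other normalizations, filters, variance models, cluster choices, thresholds, a replicate block and arrays left out.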

Additional observations from a re-analysis of the deposited data

Results flagged for a closer look

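In 80 groups of 4 arrays examined for 1 array far from the other 3, 4 had such an array, which is the number that chance gives at about 1 in 20. Mrps22 read 9.23 on WT replicate 3, against 9.17 to 9.18 on the other WT arrays. Dap3 read 9.70 on WT replicate 2, with the other WT arrays at 9.62 and 9.63. Slirp read 8.86 on WT replicate 4, with the other WT arrays at 9.22 to 9.24. Kars read 9.37 on Mll1_KO replicate 3, with the other Mll1_KO arrays at 9.25 to 9.27. Their causes were not tested.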

How the results depend on the processing

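The 0 genes lower among the 75 held under every alternative run, and the sign of their median difference (0.08 to 0.141) under those run for it, which did not include array weights. The count of 10 higher is given with the share of all genes called higher in parentheses (5.15% for the 10). It was 19 with arrays centred on the median (7.51%) and 16 with dim genes left out (8.45%). It was also 16 with array weights (7.07%) and with eBayes with trend and robust (6.56%). The unmoderated test gave 3 (2.3%), and leaving out WT replicates 1 and 4 gave 1 (1.77%). At adjusted p thresholds of 0.1 and 0.01 the count was 23 (9.33%) and 1 (1.06%). It was 1 with a fold of 1.2 or more (2.24%), and 1 to 12 with single arrays left out (1.66% to 6.28%). Over all genes, the 1236 higher and 1364 lower became 686 and 378 (quantile), 746 and 437 (cyclic loess), 552 and 384 (unmoderated) and 424 and 395 (without WT replicates 1 and 4). At 0.1 they were 2237 and 3263, at 0.01 254 and 130, with the fold 537 and 465, and with single arrays left out 398 to 1506 and 313 to 1755. They were 1802 and 795 when centred and 1695 and 2469 with array weights. Rises were 69.4% of calls when centred, 63.1% after cyclic loess and 40.7% with array weights. The causes were not tested.

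With the replicate number as a block, 5 of the 75 were higher, 4 of them among the 10. Over all genes 799 (3.33%) were then called higher and 759 (3.16%) lower. Whether the numbers pair the samples is not known. Differences near 0 turned sign: Mrpl48 to 0.014 when centred and 0.05 over the mean of its clusters, Mrps12 to 0.0025 without WT replicates 1 and 4, Mrps22 to -0.029 (quantile), -0.030 (cyclic loess) and -0.010 (without WT replicates 1 and 4), and Mrpl12 to -0.0010 (cyclic loess), -0.011 (array weights) and -0.0575 (without WT replicates 1 and 4). With single arrays left out, Mrpl28 ran between -0.129 and 0.0275, Mrpl48 between -0.099 and 0.0175, Mrps22 between -0.0033 and 0.018, and Mrpl12 between -0.017 and 0.10. On 1 strand, GGGCGG stood in 27.8% of promoters, beside 23.4% of all, and CCAAT in 15.3%, beside 21.1%. Taking all clusters with a symbol, chosen after seeing the data, left 10. Of the 10, only Mrpl23 passed with each array left out; Mrpl40 passed in 7 of 8, Mrps18c in 5, Mrps30 in 4, Mrps23 in 3, Mrpl45, Mrpl32 and Mrps18a in 2, and Mrps17 and Mrpl54 in 1.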

Other observations

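Many mitochondrial ribosomal protein genes lie head to head with another gene. In the RefSeq promoter table for GRCm38.p6, 26 of 66 (39.4%) had the start of a gene on the other strand within 1000 bases before their own start, beside 12.3% of 27025 genes, a window chosen after seeing the data. Mrpl46 and Mrps11 are paired with each other, with starts 42 bases apart. In 22 pairs the partner was a gene outside the list that was tested under the same symbol. Twnk, the partner of Mrpl43, was tested under its older symbol Peo1 and is not among the 22. These 22 mitochondrial ribosomal protein genes had a median difference of 0.136 log2, with 20 above 0 and 3 that passed, and their partners -0.0125, with 10 above 0, 0 higher and 1 lower. The mitochondrial ribosomal protein gene had the larger difference in 15 of the 22 pairs. Median signals were 9.14 and 8.69, and the difference moved with signal over all genes; the part of signal in this contrast was not tested.

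Single pairs ran both ways. Mrps18c differed by 0.23 and its partner Helq, a DNA helicase, by -0.075 (starts 159 bases apart). Mrpl40 differed by 0.235 and Hira, a histone chaperone, by 0.00 (113 bases). Mrpl37 differed by 0.1175 and Cyb5rl by -0.17, the 1 partner that was lower (limma, adjusted p = 0.0446). Mrpl47 differed by 0.1275 and Ndufb5, a complex I subunit, by 0.24 (limma, adjusted p = 0.181 and 0.0558), and Mrpl49 by 0.16 and Fau, which encodes a ubiquitin-like protein fused to a cytosolic ribosomal protein, by 0.18 (limma, adjusted p = 0.052 and 0.0899).

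Pseudogenes with clusters of their own were outside the list. Mrps36-ps2 differed by 0.27 ± 0.087 (SE, limma, adjusted p = 0.0628), near the value of Mrps36 itself, and Mrpl48-ps by 0.01 ± 0.044 (adjusted p = 0.892). Whether such clusters share probes with the genes was not given in the sources used here.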
